A study of Mus musculus with 8 samples.

Results

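Loss of Dax1 was compared with its presence in mouse embryonic stem cells (ESCs) grown in LIF/serum, the conventional medium in which serum and the cytokine LIF hold ESCs undifferentiated. The comparison covered the 4 LIF/serum libraries of the 8 in the series and all 20749 genes that passed a filter on low counts, of 52550 genes listed. Of the tested genes, 1054 lie on chromosome 6 of the mouse genome build GRCm38 and are given apart, because the whole chromosome was shifted upwards in the Dax1KO line, and 19695 lie elsewhere. Each line was sequenced as 2 libraries of messenger RNA, all at passage 3, in DMEM with 15% serum and 10 ng/ml LIF on gelatin-coated plates without mention of feeder cells. The remaining libraries, of the same lines in 2i/LIF, a serum-free medium with inhibitors of MEK and GSK3, entered the fit and served for comparison.

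Control ESCs expressed Dax1, whereas the Dax1KO line had been made with a CRISPR/Cas9 lentivirus and zeocin selection in 2i/LIF and grown from a picked colony. A difference between Dax1KO and control is therefore a difference between that line and the control line, and loss of Dax1 and other features of the picked colony cannot be told apart. The sources do not say whether the libraries of a line came from separate cultures, so the P values measure only the spread between these libraries, which may be technical. Total counts were 35911384 to 37106730 in the LIF/serum libraries, and the biological coefficient of variation was 20.9% over all groups. Values are normalized counts (counts scaled to the mean library size after TMM normalization), given for replicates 1 and 2 of a group in that order. A gene is called higher or lower if it passed edgeR's quasi-likelihood test with an adjusted P (Benjamini-Hochberg) no larger than 0.05 and changed by 1.2 fold or more, and fold changes are log2 of Dax1KO over control ± standard error (SE).

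Dax1, encoded by Nr0b1 on the X chromosome, is an orphan nuclear receptor that lacks a typical DNA-binding domain and acts mostly as a corepressor of other nuclear receptors, among them Nr5a1 and Nr5a2. In ESCs it belongs to the network of transcription factors around Oct4 (Pou5f1) and Nanog that holds cells undifferentiated. Serum is an undefined mixture of growth factors, and small numbers of cells in LIF/serum cultures drift toward primitive endoderm or toward the formative epiblast, the states that the blastocyst's inner cell mass and its descendants pass through. Nr0b1 was counted at 5402 and 5001 in the control libraries and at 13.4 and 5.85 in the Dax1KO libraries (log2 fold change -9.06 ± 0.38 SE, adjusted p = 0.000395).

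Outside chromosome 6, 1543 genes (7.83% of those tested) were higher and 1183 (6.01%) lower in Dax1KO cells, and the median log2 fold change of all genes was 0. At 2 fold or more the fit gave 799 higher genes (4.06%) and 471 lower genes (2.39%). These percentages are the background against which the lists below can be read. In lists of pathways, complexes and cell types, which were chosen with earlier results of these data known and so are not independent evidence of a direction, primitive endoderm genes, cholesterol synthesis, Hox genes and matrix enzymes had more higher members than the background share, and ribosome biogenesis, formative markers and the hedgehog pathway had more lower members, without a test over a list. The number of calls depended on the libraries: 1812 genes were called without control replicate 1, 1519 without control replicate 2, 1285 without Dax1KO replicate 1 and 625 without Dax1KO replicate 2. The fold changes also moved with base composition. Over 12882 genes with a mean of 100 or more normalized counts in the higher group, the Spearman correlation between fold change and the GC content of the longest transcript reached 0.257 in LIF/serum, beside 0.033 in 2i/LIF, a description in which all genes share the same libraries. In the lowest of 5 equal GC classes the median log2 fold change was -0.22 and 4.15% of genes were higher, and in the highest class the median was 0.13 and 15.4% were higher. Counts of list members with this trend removed, an alternative added after the data were seen, stand beside the main lists and beside any list whose count they moved by over 1.5 times and more than 1 gene.

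**Figure D1:**
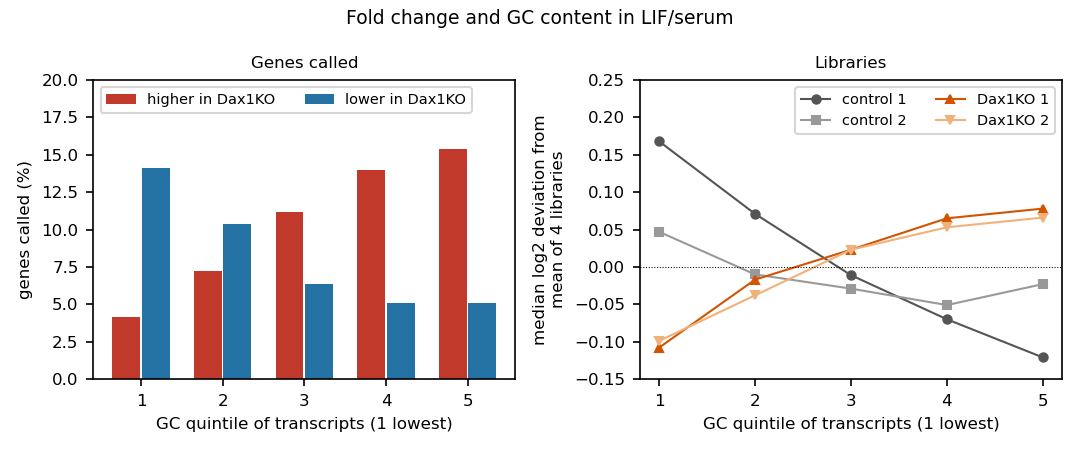
Percent of genes called higher or lower in Dax1KO (left) and median log2 deviation of each LIF/serum library from the mean of the 4 (right), in 5 equal classes of 12882 genes ordered by transcript GC content. The share of higher genes went from 4.15% in the lowest class to 15.4% in the highest, and control replicate 1 deviated most, by 0.17 in the lowest class, against 0.05 in control replicate 2 and -0.11 and -0.10 in the Dax1KO libraries.

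Of the core factors of ESC identity, 1 was called outside chromosome 6, and 1 of the 2 on that chromosome was lower (given below). Among 17 core pluripotency factors outside chromosome 6, 0 were higher and 1 was lower. Their median log2 fold change was -0.30 (2i/LIF -0.40), and 13 had values below 0. The count of lower factors was 2 without control replicate 1, 3 with the GC trend removed (median -0.40) and 5 with DESeq2. Pou5f1 was counted at 36137 and 45128 in control and 34312 and 36289 in Dax1KO libraries (log2 fold change -0.20, adjusted p = 0.33), and Sox2, its DNA-binding partner, at 20361 and 22469 against 16414 and 17375 (adjusted p = 0.0882). Both Dax1KO values of Sox2 lay below both controls without passing the test, and those of Pou5f1 overlapped with the controls. The lower member outside chromosome 6 was L1td1, an RNA-binding protein of undifferentiated cells, at 36707 and 34664 in control and 16641 and 15012 in Dax1KO libraries (log2 fold change -1.17 ± 0.11, adjusted p = 0.00158).

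The 12 naive factors, which mark the state of the preimplantation epiblast, split. Klf4, a LIF-responsive Krüppel-like factor, rose from 6817 and 7651 to 13747 and 11298 (log2 fold change 0.79, adjusted p = 0.0107). Its relative Klf2 fell from 13510 and 17905 to 7634 and 6594 (log2 fold change -1.14, adjusted p = 0.00565). Nr5a2, an orphan receptor that binds the Pou5f1 promoter and is itself a partner of Dax1, fell from 3563 and 2820 to 1368 and 1217 (log2 fold change -1.30, adjusted p = 0.00244). The Dax1KO libraries stood apart from both controls in all of these, as the rule for naming list members required, and Tfap2c was the third lower member. The calls of Klf2 and Nr5a2 were kept without each LIF/serum library. Zfp42 (Rex1), a marker of the naive state, had 31678 and 31237 in control and 27828 and 19792 in Dax1KO libraries (log2 fold change -0.40, adjusted p = 0.134). Targets of LIF signalling also split: Socs3, the feedback inhibitor of the LIF receptor, rose (log2 fold change 0.66, adjusted p = 0.0243), whereas Socs2 fell from 4856 and 4190 to 1823 and 1662 (log2 fold change -1.38, adjusted p = 0.00285) and Junb fell (log2 fold change -0.70, adjusted p = 0.0242), so that 2 of 14 members were higher and 2 lower. Of the 14, 1 was higher without Dax1KO replicate 1 or Dax1KO replicate 2, and 1 was lower without control replicate 2, Dax1KO replicate 1 or Dax1KO replicate 2. The call of Klf4 was lost without Dax1KO replicate 1, and that of Tfap2c without Dax1KO replicate 1, control replicate 2 or the 2i/LIF libraries. The call of Socs3 was lost without Dax1KO replicate 2, control replicate 1, a filter on low counts or the 2i/LIF libraries and with a test against 1.2 fold, and that of Junb without Dax1KO replicate 1, Dax1KO replicate 2, control replicate 2 or a filter on low counts and with a test against 1.2 fold.

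Primitive endoderm genes were higher where called. This layer of the blastocyst lines the blastocyst cavity beneath the epiblast and secretes basement membrane, and its identity is set by the factors Gata6, Gata4 and Sox17. Of 29 members tested, 14 were higher and 0 lower, 24 had fold changes above 0, and the median was 1.11, against -0.34 for the same genes in 2i/LIF. With the GC trend removed, 11 were higher and the median was 0.95. DESeq2 called 17 higher and 1 lower. The number of higher members was 13 without control replicate 1, 7 without control replicate 2, 7 without Dax1KO replicate 1 and 6 without Dax1KO replicate 2. In bulk samples, more cells of a type and more RNA per cell cannot be told apart. Gata4 was counted at 893 and 736 in control and at 2351 and 2069 in Dax1KO libraries (log2 fold change 1.44 ± 0.15, adjusted p = 0.00221). Sox17 had 43.5 and 50.1 against 145 and 142 (log2 fold change 1.62 ± 0.26, adjusted p = 0.00875). Dab2, an adaptor of endocytosis needed for the positioning of this layer, had 2952 and 1992 against 8266 and 7089 (log2 fold change 1.63 ± 0.25, adjusted p = 0.00678). In each of them both Dax1KO libraries lay above both control libraries, and the control libraries of Dab2 lay further apart from each other than those of Gata4 and Sox17. The call of Sox17 was lost without Dax1KO replicate 2.

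Further members of this list were higher. Sparc, which binds collagen in the basement membrane, had 13051 and 11121 in control and 26585 and 26113 in Dax1KO libraries (log2 fold change 1.12 ± 0.12, adjusted p = 0.00204). Col4a1, a chain of type IV collagen, had 13322 and 5963 against 36980 and 29660 (log2 fold change 1.79 ± 0.35, adjusted p = 0.0163), and its exons overlap those of Col4a2 on the other strand, so reads of the pair may be shared. The retinol transporters Stra6 (log2 fold change 2.67, adjusted p = 0.0101) and Rbp4 (1.00, adjusted p = 0.0411) and the apolipoprotein Apom (1.69, adjusted p = 0.00492) were higher as well. The control libraries of Col4a1 differed from each other more than its Dax1KO libraries did, and 18 of the 29 list members were lower in the second than in the first library of both lines. Lama1, the laminin chain of the same membrane, had 9115 and 5444 against 15830 and 9653 (adjusted p = 0.0949), with first libraries above second ones in both groups, and Foxa2, a factor shared with definitive endoderm, had 111 and 84.3 against 225 and 199 (adjusted p = 0.17), both without passing the test. The summed normalized counts of the list were 113014 and 80722 in control and 192548 and 152989 in Dax1KO libraries. The call of Col4a1 was lost without Dax1KO replicate 1, Dax1KO replicate 2 or a filter on low counts, and that of Col4a2 without control replicate 2. The call of Stra6 was lost without Dax1KO replicate 2, and that of Rbp4 without Dax1KO replicate 1, Dax1KO replicate 2, control replicate 1, control replicate 2, a filter on low counts or the 2i/LIF libraries and with a test against 1.2 fold and with the GC trend removed.

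**Figure D2:**
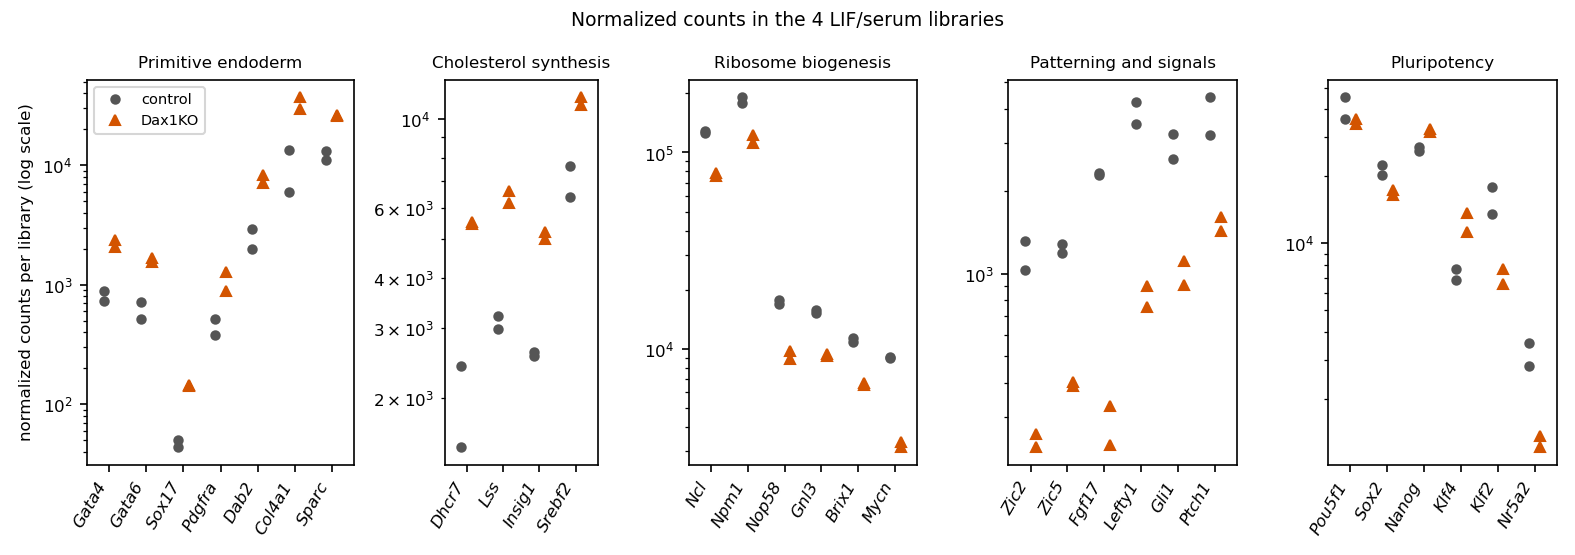
Normalized counts on log axes of selected genes, with a circle for each control library and a triangle for each Dax1KO library in LIF/serum. The Dax1KO points of Gata4 and Sparc lie above, and those of Mycn and Zic2 below, both control points, whereas the points of Pou5f1 overlap.

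Members of other lineages were called as well. Of 19 trophectoderm genes, the outer layer of the blastocyst, 5 were higher and 0 lower (median 0.35, 2i/LIF 1.10), and 3 were called without each library in turn. Hand1, a factor of trophoblast giant cells, had 104 and 71.5 in control and 352 and 389 in Dax1KO libraries (log2 fold change 2.08 ± 0.32, adjusted p = 0.00729), and Tfap2a had 113 and 148 against 379 and 388 (log2 fold change 1.55, adjusted p = 0.0066). Cdx2, the factor that sets trophectoderm fate, was near the lower end of detection with 25.4 and 14.9 against 6.7 and 15.6 (adjusted p = 0.544). Of 22 primitive streak and mesoderm genes 4 were higher and 0 lower. Among them was Eomes (258 and 347 against 566 and 683, adjusted p = 0.0156), which also marks trophoblast, whereas Mixl1, a defining streak gene, had 28.6 and 23.5 against 17.2 and 22.4 (adjusted p = 0.692). The higher streak members were 1 without control replicate 1 and 0 without Dax1KO replicate 2. Of 26 neural ectoderm genes 1 was higher, Mapt (701 and 329.6 against 1825 and 1941, log2 fold change 1.87), and 1 was lower, Pax6 (143 and 243 against 45.9 and 32.2, log2 fold change -2.30). With the GC trend removed 3 were lower, without Dax1KO replicate 1 the lower members were 2, and the higher ones 2 without control replicate 1. The call of Eomes was lost without Dax1KO replicate 2 or control replicate 1, and that of Pax6 without Dax1KO replicate 2.

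Genes of mesenchyme and blood vessels gave a mixed picture. Of 15 endothelium and blood genes 4 were higher and 1 lower, with 2 higher without control replicate 1, control replicate 2 or Dax1KO replicate 1 and 1 without Dax1KO replicate 2. Pecam1, an adhesion molecule of endothelium that ESCs also express, had 1573 and 1598 in control and 3308 and 3420 in Dax1KO libraries (log2 fold change 1.09 ± 0.10, adjusted p = 0.00158). Of 12 fibroblast and smooth muscle genes 4 were higher and 2 lower, and 4 were higher without each library in turn as well, whereas the lower members were 1 without control replicate 1 and 0 without control replicate 2, Dax1KO replicate 1 or Dax1KO replicate 2. Col1a1, the main chain of fibroblast collagen, had 21.2 and 45.9 against 164 and 131 (log2 fold change 2.13 ± 0.37, adjusted p = 0.0108). Thy1 had 413 and 409 against 1288 and 1250 (log2 fold change 1.63 ± 0.15, adjusted p = 0.00147). The summed counts of this list were 1799 and 1931 in control and 3448 and 3507 in Dax1KO libraries, 2 of its defining members (Postn and Lum) were at 0 in all 4 libraries, and its part in the results on matrix genes was not tested.

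**Figure D3:**
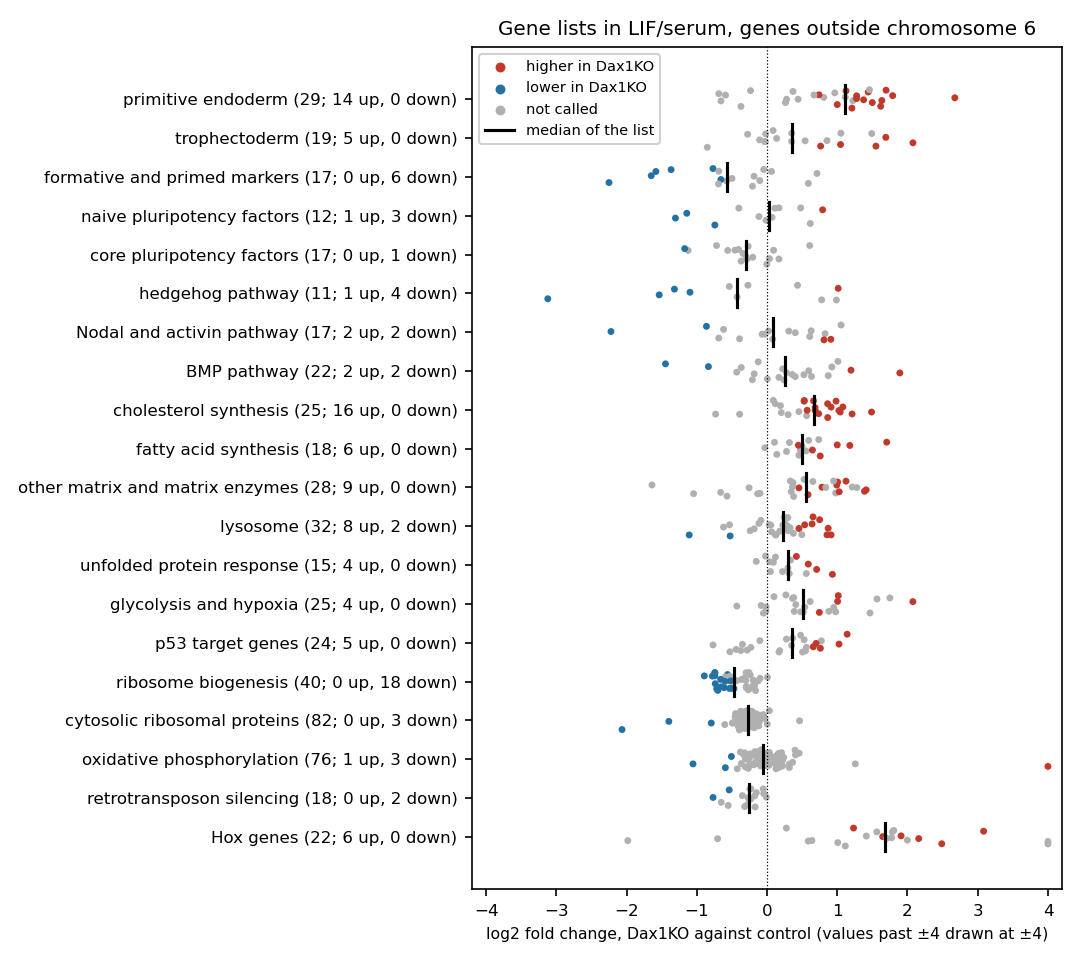
Log2 fold changes of Dax1KO over control in LIF/serum for the members of 20 gene lists outside chromosome 6, with a point for each gene, coloured where called, and a bar at the median of the list. The bars of primitive endoderm and Hox genes lie above 1, and those of ribosome biogenesis and formative markers lie at -0.47 and -0.57.

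Formative and primed markers, which rise as the naive state is left, were lower where they changed. Of 17 tested, 0 were higher and 6 lower, their median log2 fold change was -0.57 (2i/LIF -0.68), and 7 were lower with the GC trend removed. The count was 5 without control replicate 1, 4 without control replicate 2, 3 without Dax1KO replicate 1 and 2 without Dax1KO replicate 2. Zic2, a zinc-finger factor at enhancers of the formative epiblast, had 1031 and 1317 in control and 260.2 and 233 in Dax1KO libraries (log2 fold change -2.25 ± 0.24, adjusted p = 0.0021). Its neighbour on chromosome 14, Zic5, had 1195 and 1286 against 389 and 402 (log2 fold change -1.65 ± 0.15, adjusted p = 0.00147). The calls of both were kept without each library. Cdh2 (N-cadherin) was also lower (log2 fold change -1.58, adjusted p = 0.0134). Fgf5, the classical marker of this state, was low in all 4 libraries, with 35 and 46.9 against 35.4 and 19.5 (adjusted p = 0.565). The call of Cdh2 was lost without Dax1KO replicate 1 or Dax1KO replicate 2.

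Ligands of the FGF family changed in both directions, 4 of 19 ligands and receptors higher and 2 lower. Fgf17 fell from 2288 and 2328 to 329 and 238 (log2 fold change -3.02 ± 0.24, adjusted p = 0.00109), and Fgf18, of the same subfamily, from 115 and 102 to 27.7 and 10.7 (log2 fold change -2.49, adjusted p = 0.0166). Fgf10, a ligand of mesenchyme, rose from 209 and 307 to 879 and 841 (log2 fold change 1.74, adjusted p = 0.0115). The higher members were 2 without control replicate 1 and 0 without Dax1KO replicate 2, and the lower ones 1 without control replicate 1 or control replicate 2 and 4 with DESeq2. Of 24 response genes of FGF and ERK 4 were higher and 4 lower. Etv4 rose (3662 and 3172 against 7405 and 6620, log2 fold change 1.04, adjusted p = 0.00345), its relative Etv1 fell (1493 and 723 against 332 and 448, log2 fold change -1.51, adjusted p = 0.0202), and Egr1, an immediate early gene, fell (3080 and 2315 against 1333 and 471, log2 fold change -1.58, adjusted p = 0.0446). The Dax1KO libraries of Egr1 differed from each other more than the controls did, and without Dax1KO replicate 2 or control replicate 1 0 members were lower. The lower members were 7 with DESeq2, 2 without control replicate 2 and 1 without Dax1KO replicate 1, and the higher ones 1 without control replicate 2 or Dax1KO replicate 1 and 2 without Dax1KO replicate 2. The call of Fgf18 was lost without Dax1KO replicate 2, control replicate 1 or control replicate 2, and that of Fgf10 without Dax1KO replicate 2 or control replicate 1. The call of Etv1 was lost without Dax1KO replicate 1, Dax1KO replicate 2, control replicate 1, a filter on low counts or the 2i/LIF libraries, and that of Egr1 without Dax1KO replicate 2, control replicate 1, control replicate 2, a filter on low counts or the 2i/LIF libraries and with a test against 1.2 fold.

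In the hedgehog pathway, in which Gli1, Ptch1 and Hhip are usual transcriptional targets, 4 of 11 members were lower and 1 (Cdon) higher. Ptch1, the receptor, had 4391 and 3204 in control and 1429 and 1616 in Dax1KO libraries (log2 fold change -1.32 ± 0.17, adjusted p = 0.00424). Gli1, the factor that amplifies the response, had 3225 and 2622 against 1109 and 908 (log2 fold change -1.54 ± 0.27, adjusted p = 0.0107), with exons that overlap Arhgap9. Hhip, which binds and buffers the ligands, had 108 and 112 against 17.2 and 7.8 (log2 fold change -3.12 ± 0.41, adjusted p = 0.00435). Without Dax1KO replicate 2 the lower members were 2. Of the Nodal and activin pathway, Lefty1, the feedback inhibitor of Nodal, had 3525 and 4234 against 905 and 758 (log2 fold change -2.22 ± 0.32, adjusted p = 0.00587), and 2 of 17 members were higher and 2 lower, with 5 higher with DESeq2, 1 lower with the GC trend removed, without control replicate 1 or without Dax1KO replicate 1 and 0 without Dax1KO replicate 2. The calls of Gli1 and Lefty1 were lost without Dax1KO replicate 2, and that of Cdon without Dax1KO replicate 2 or control replicate 2.

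Of 22 BMP pathway genes 2 were higher and 2 lower, with 0 or 1 higher without any 1 library and 0 lower without control replicate 2 or Dax1KO replicate 1. The ligand Bmp7 rose from 72.1 and 130.1 to 314 and 437 (log2 fold change 1.89 ± 0.30, adjusted p = 0.00798), and the ligand Bmp6 was higher too (adjusted p = 0.0379). Both lower members were target genes: Id1, an inhibitor of differentiation factors, had 2947 and 3288 against 1600 and 1897 (log2 fold change -0.83 ± 0.17, adjusted p = 0.0192) and Id2 had 1128 and 1112 against 285 and 537 (log2 fold change -1.45, adjusted p = 0.0183), whereas Id3 had 710.3 and 747 against 665 and 596 (adjusted p = 0.57). Of 17 Wnt targets 4 were higher and 3 lower, with at most 2 higher and 1 lower without any 1 library. Ccnd1, a cyclin that drives entry into the cell cycle, had 6209 and 4403 against 2113 and 1854 (log2 fold change -1.42 ± 0.18, adjusted p = 0.00382), Nkd1, an inhibitor of the pathway, had 106 and 139 against 353 and 408 (log2 fold change 1.64 ± 0.20, adjusted p = 0.00382), and Axin2, a general target, had 471 and 445 against 646 and 597 (adjusted p = 0.185). The call of Bmp7 was lost without Dax1KO replicate 2, and that of Bmp6 without Dax1KO replicate 1, Dax1KO replicate 2, control replicate 1, control replicate 2 or a filter on low counts and with a test against 1.2 fold. The call of Id1 was lost without Dax1KO replicate 1, Dax1KO replicate 2, control replicate 2 or a filter on low counts, and that of Id2 without Dax1KO replicate 1, control replicate 1, control replicate 2 or a filter on low counts.

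Genes of cholesterol synthesis were higher where called. Cholesterol is made from acetyl-CoA through mevalonate and squalene, and the enzymes are switched on jointly by SREBP2 when the sterol content of membranes falls. Of 25 members tested, 16 were higher and 0 lower, 23 had fold changes above 0, and the median was 0.66 (2i/LIF 0.07). With the GC trend removed, 14 were higher with a median of 0.55. The count was 10 without control replicate 1, 11 without control replicate 2, 10 without Dax1KO replicate 1 and 6 without Dax1KO replicate 2. Lss, which closes the sterol rings, had 2991 and 3222 in control and 6174 and 6621 in Dax1KO libraries (log2 fold change 1.04 ± 0.16, adjusted p = 0.00698). Dhcr7, the last enzyme of the pathway, had 1510 and 2411 against 5458 and 5539 (log2 fold change 1.49 ± 0.23, adjusted p = 0.00786). In both of them the Dax1KO libraries lay above both controls. The sterol carrier Stard4 rose as well (log2 fold change 1.08, adjusted p = 0.00426).

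SREBP2 works with the factor NF-Y, which binds the box CCAAT, so the promoters were searched for these letters on both strands. The RefSeq table of GRCm38.p6 holds promoters (250 bases before to 50 after the start) of 17 of the 25 genes. Of these genes 16 (94.1%) held the box, against 41.1% of all 27025 genes with a promoter. A gene with several promoters counted if any of them held the box. Of 15 fatty acid genes 10 held it. The sterol element TCACNCCAC was found in 1 of the 17. Among genes with a promoter it was found in 1.4% of all, 2.2% of higher and 0.5% of lower genes. These counts, for motifs chosen after the values were seen, describe letters only. Stretches from 120 bases before to 20 after the start of 3 higher genes are shown because they held the box close to the start, in capitals on either strand: Tm7sf2 at chr19:6067831-6067970 (minus strand), Lss at chr10:76531485-76531624 (plus strand) and Hsd17b7 at chr1:169969186-169969325 (minus strand).
Tm7sf2: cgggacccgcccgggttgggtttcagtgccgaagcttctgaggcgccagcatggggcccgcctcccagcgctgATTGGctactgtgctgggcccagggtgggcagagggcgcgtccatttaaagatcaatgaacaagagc
Lss: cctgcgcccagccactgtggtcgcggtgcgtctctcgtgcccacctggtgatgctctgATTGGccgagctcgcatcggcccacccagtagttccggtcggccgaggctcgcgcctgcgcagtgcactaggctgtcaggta
Hsd17b7: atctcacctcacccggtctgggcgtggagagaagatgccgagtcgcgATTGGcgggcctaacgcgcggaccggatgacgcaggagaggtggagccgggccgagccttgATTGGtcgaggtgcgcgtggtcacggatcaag
Of these genes, Tm7sf2, a sterol reductase whose exons overlap Vps51, had 309.6 and 310.4 in control and 619.9 and 816 in Dax1KO libraries (log2 fold change 1.21 ± 0.20, adjusted p = 0.00966). Hsd17b7, a sterol ketoreductase, had 604 and 467 against 1144 and 1035 (log2 fold change 1.02 ± 0.17, adjusted p = 0.00939). The call of Tm7sf2 was lost without Dax1KO replicate 2.

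Genes of fatty acid synthesis were also higher where called, with 6 of 18 higher, 0 lower and 12 not called (median 0.49, 2i/LIF 0.00). With DESeq2 10 were higher, and 2 were called without control replicate 2, 3 without Dax1KO replicate 1 and 1 without Dax1KO replicate 2. Scd1, the desaturase that makes oleate, had 3397 and 2808 in control and 6765 and 7285 in Dax1KO libraries (log2 fold change 1.18 ± 0.19, adjusted p = 0.00865). Acss2, which makes acetyl-CoA from acetate, had 384 and 523 against 1264 and 1691 (log2 fold change 1.70 ± 0.19, adjusted p = 0.00262), with exons that overlap Ggt7 and Gss. The groups did not overlap in either gene. The call of Scd1 was lost without Dax1KO replicate 2 or control replicate 2.

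Genes that build ribosomes were lower where called. Ribosome biogenesis takes place in the nucleolus, where rRNA is transcribed, cut, modified and joined with proteins, and its genes are known targets of Myc factors. Of 40 members tested, 0 were higher and 18 lower, 39 had fold changes below 0, and the median was -0.47 (2i/LIF -0.04). With the GC trend removed, 21 were lower with a median of -0.48. The count was 14 without control replicate 1, 13 without control replicate 2, 12 without Dax1KO replicate 1 and 5 without Dax1KO replicate 2. Ncl (nucleolin), an abundant nucleolar RNA chaperone, had 125106 and 129156 in control and 78953 and 75775 in Dax1KO libraries (log2 fold change -0.72 ± 0.10, adjusted p = 0.00587). Nop58, a core protein of box C/D snoRNPs, had 16920 and 17688 against 9772 and 8866 (log2 fold change -0.89 ± 0.15, adjusted p = 0.00975). Wdr12, a subunit of the PeBoW complex for the large subunit, had 4884 and 5324 against 3035 and 2918 (log2 fold change -0.78 ± 0.10, adjusted p = 0.00488). The 4 libraries of each gene fell into a higher pair of controls and a lower pair of Dax1KO libraries. Npm1 (nucleophosmin) was lower too (log2 fold change -0.66, adjusted p = 0.0101), with near-identical copies elsewhere in the genome that make its counts uncertain. The call of Nop58 was lost without Dax1KO replicate 2, and that of Npm1 without Dax1KO replicate 1.

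Mycn, a Myc factor of the early epiblast, fell from 9044 and 8958 to 3331 and 3144 (log2 fold change -1.48 ± 0.10, adjusted p = 0.000883), and was the only one of 11 Myc network genes called, with all libraries and without each LIF/serum library in turn. Myc had 1766 and 1783 against 1372 and 838, with the Dax1KO libraries below both controls and apart from each other (adjusted p = 0.138). The box CACGTG is bound by Myc and other basic helix-loop-helix factors. Of genes with a promoter, 9 of 37 for ribosome biogenesis (24.3%) and 4 of 17 for cholesterol synthesis (23.5%) held it. So did 8.1% of all genes with a promoter, 11.3% of tested, 9.9% of higher and 13.1% of lower genes. Cytosolic ribosomal proteins, 82 in number, had a median of -0.27 (2i/LIF -0.08), but 3 were called lower, a count that was 26 without control replicate 1 and 5 with the GC trend removed. The strongest of them were the paralogs known from testis, Rpl10l (5431 and 7114 against 1386 and 1612, log2 fold change -2.07, uncertain for near-identical copies) and Rpl39l (2617 and 3706 against 1287 and 1112, log2 fold change -1.40).

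Families picked after the values were seen are given as descriptions. They were matched by symbol, so the initiation factors include kinases and binding proteins of such factors. The proteasome subunits likewise include an interacting protein. Of 52 translation initiation factors 0 were higher and 12 lower (median -0.26), of 62 splicing factors 1 was higher and 21 lower (median -0.36), of 36 DEAD-box helicases 1 was higher and 10 lower, of 71 mitochondrial ribosomal proteins 0 and 11, and of 38 proteasome subunits 0 and 11. Without Dax1KO replicate 2 the lower members were 1, 6, 0, 0 and 0 in this order, and without Dax1KO replicate 1 they were 1, 11, 7, 1 and 1. Without control replicate 1 they were 7, 12, 5, 11 and 13, and without control replicate 2 they were 3, 14, 8, 0 and 3. With DESeq2 19 initiation factors, 17 helicases and 19 mitochondrial ribosomal proteins were lower. Hnrnph1, a splicing regulator, had 11594 and 10898 in control and 4995 and 4668 in Dax1KO libraries (log2 fold change -1.22 ± 0.11, adjusted p = 0.00147). Among the lower genes with the most counts were also Tpr, of the nuclear pore basket (17362 and 15339 against 5385 and 5898, log2 fold change -1.54), and Kif11, the motor that separates spindle poles (12728 and 11248 against 4137 and 3690, log2 fold change -1.62). Cell cycle regulators as a list had 2 higher and 3 lower members of 34. Lower members numbered 6 with the GC trend removed and 5 with DESeq2, and 1 without control replicate 1, control replicate 2 or Dax1KO replicate 2, and the higher ones 1 without control replicate 1, Dax1KO replicate 1 or Dax1KO replicate 2.

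Genes of the extracellular matrix and of the secretory route were mostly higher where called. Of 28 matrix proteins and enzymes other than collagens and laminins, 9 were higher and 0 lower (median 0.56, 2i/LIF 0.07), 3 without Dax1KO replicate 2 and 5 without control replicate 2. Timp2, an inhibitor of matrix proteases, had 149 and 115 in control and 330.0 and 374 in Dax1KO libraries (log2 fold change 1.41 ± 0.20, adjusted p = 0.00532). Of 44 collagens and laminins 8 were higher and 2 lower, with 4 higher without control replicate 2 or Dax1KO replicate 2 and 5 without Dax1KO replicate 1, and 1 lower without control replicate 1 or Dax1KO replicate 1 and 0 without Dax1KO replicate 2. Lamb3, a chain of an epithelial laminin, had 42.4 and 46.9 against 228 and 301 (log2 fold change 2.56 ± 0.25, adjusted p = 0.00183). Of 15 genes of the unfolded protein response 4 were higher and 0 lower, but Hspa5, its central chaperone, had 9861 and 9243 against 10867 and 9899 (adjusted p = 0.739). Of the 15, 0 were higher without Dax1KO replicate 1 or Dax1KO replicate 2, 1 without control replicate 2 and 2 without control replicate 1. Of 32 lysosomal genes 8 were higher and 2 lower (median 0.23, 2i/LIF 0.04), with 5 higher without control replicate 2, 3 without Dax1KO replicate 1 and 4 without Dax1KO replicate 2, and 0 lower without control replicate 1, Dax1KO replicate 1 or Dax1KO replicate 2. The galactosidase Glb1 rose (2353 and 2313 against 4545 and 3986, log2 fold change 0.87 ± 0.14, adjusted p = 0.00902), and the lipase Lipa fell (605 and 494 against 269 and 241, log2 fold change -1.11, adjusted p = 0.0143). Lgmn, a lysosomal protease outside the list, had 3376 and 2990 against 8259 and 7621 (log2 fold change 1.32 ± 0.11, adjusted p = 0.00122). The call of Lipa was lost without Dax1KO replicate 1, Dax1KO replicate 2 or control replicate 1.

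Carriers of nutrients and stress genes were mostly higher where called. Of 48 carriers of amino acids and glucose 10 were higher and 4 lower, with 6 higher without control replicate 1, control replicate 2 or Dax1KO replicate 1 and 4 without Dax1KO replicate 2, and 1 lower without control replicate 1 or Dax1KO replicate 2 and 2 without Dax1KO replicate 1. The glutamate carrier Slc1a1 had 116 and 131 in control and 953 and 1023 in Dax1KO libraries (log2 fold change 3.00 ± 0.14, adjusted p = 0.000395), and the arginine carrier Slc7a3 fell (4714 and 4722 against 2721 and 2407, log2 fold change -0.88, adjusted p = 0.00486). Of 24 targets of ATF4, the factor of amino acid shortage, 6 were higher and 1 lower (2 higher without control replicate 1 or Dax1KO replicate 2, and 3 without Dax1KO replicate 1), among them Pycr1 of proline synthesis (1090 and 1105 against 2349 and 2783, log2 fold change 1.23 ± 0.14, adjusted p = 0.00295). Of 24 p53 targets 5 were higher and 0 lower (median 0.36, 2i/LIF 0.02), 3 without Dax1KO replicate 1 or Dax1KO replicate 2. Cdkn1a (p21), which halts the cell cycle, had 2215 and 2401 against 4766 and 5412 (log2 fold change 1.14 ± 0.15, adjusted p = 0.00446), and Btg2 had 2101 and 2011 against 4050 and 4316 (log2 fold change 1.02, adjusted p = 0.00477).

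Regulators of cell death outside chromosome 6 were mostly not called. Of 24 BCL2 family members and caspases there 3 were higher and 2 lower, with 1 or 2 higher and 0 or 1 lower without any 1 library. The 3 tested members on chromosome 6 were all higher (median 0.91), on a chromosome whose genes were shifted by a median of 0.52. Casp9, the initiator caspase of the mitochondrial route, had 588 and 684 in control and 1304 and 1273 in Dax1KO libraries (log2 fold change 1.02 ± 0.13, adjusted p = 0.00423), and kept its call without each LIF/serum library. The pro-apoptotic Hrk had 181 and 162 against 444 and 390.0 (log2 fold change 1.28, adjusted p = 0.0269), and Bcl2, the founding antiapoptotic member, was low in both groups with 32.9 and 16 against 15.3 and 10.7 (adjusted p = 0.451). Of 25 genes of glycolysis and hypoxia 4 were higher and 0 lower, or 9 and 0 with a block for the replicate number. Among the 4 was Vegfa, the growth factor of blood vessels (620.2 and 915 against 1281 and 1820, log2 fold change 1.01, adjusted p = 0.0233). All 25 of these genes were higher in the second than in the first library of both lines, by a median log2 of 0.56 in control and 0.67 in Dax1KO, and the count of higher members was 0 without control replicate 1 or Dax1KO replicate 2 and 6 without Dax1KO replicate 1, and 8 with DESeq2. The call of Hrk was lost without Dax1KO replicate 1, Dax1KO replicate 2, control replicate 1, control replicate 2 or a filter on low counts, and that of Vegfa without Dax1KO replicate 2, control replicate 1, a filter on low counts or the 2i/LIF libraries.

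Interferon-response and MHC genes changed in both directions, 4 of 20 higher and 5 lower. Ifitm3, which blocks the entry of viruses, fell from 5209 and 6743 to 1151 and 1109 (log2 fold change -2.40 ± 0.18, adjusted p = 0.00109). Ifit2 fell from 193 and 199 to 59.3 and 35.1 (log2 fold change -2.05 ± 0.33, adjusted p = 0.00814). Tap1, the peptide transporter of MHC class I, rose from 95.4 and 118 to 287 and 281 (log2 fold change 1.41 ± 0.21, adjusted p = 0.00618), with exons that overlap Psmb9. The lower members were 2 without Dax1KO replicate 2 and 3 without Dax1KO replicate 1. Of 20 germline genes 3 were higher and 3 lower, with 1 higher and 0 lower without Dax1KO replicate 2, 1 lower without control replicate 1 or Dax1KO replicate 1, and 5 higher with the GC trend removed. Dazl, an RNA-binding protein of germ cells, had 877 and 645 against 1626 and 2052 (log2 fold change 1.27 ± 0.17, adjusted p = 0.0051). The call of Ifit2 was lost without Dax1KO replicate 2.

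Members of 2 clustered families, picked after their values were seen, had fold changes mostly below 0. Of 9 Xlr genes of the X chromosome, 8 were lower (median -1.47, against 0.03 in 2i/LIF), and of 43 zinc-finger genes of distal chromosome 2, 42 had fold changes below 0 and 10 were called lower (median -0.89, against 0.02 in 2i/LIF). With the GC trend removed the medians were -1.41 and -0.53. Control replicate 1 stood apart in the zinc-finger genes, 40 of the 43 being higher there than in control replicate 2, and their summed normalized counts were 17104 and 10314 in control and 6886 and 7002 in Dax1KO libraries. The lower zinc-finger genes were 3 without control replicate 1 (median -0.51), 12 without control replicate 2, 4 without Dax1KO replicate 1, 0 without Dax1KO replicate 2 and 16 with DESeq2, and the lower Xlr genes were 7 without each library in turn. Most members of both are near-identical to one another, so the counts of single members are uncertain. Of 30 imprinted genes 1 was higher and 5 lower. Lower imprinted genes numbered 3 with the GC trend removed, 0 without control replicate 1 or Dax1KO replicate 2 and 1 without Dax1KO replicate 1, and the higher ones 3 with DESeq2 or without control replicate 1. Meg3, a maternally expressed noncoding RNA, had 10964 and 10073 in control and 7031 and 5559 in Dax1KO libraries (log2 fold change -0.74, adjusted p = 0.0145). The call of Meg3 was lost without Dax1KO replicate 2 or control replicate 1.

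Hox genes were higher where called. Of 22 Hox genes outside chromosome 6, which pattern the body axis, 6 were higher and 0 lower, with a median of 1.68 (2i/LIF -0.23), or 1.23 with the 5 members that had at most 3 counts in both control libraries set to the bound these counts allow, and the higher members were 3 without Dax1KO replicate 2. Hoxc13 had 144 and 183 in control and 513 and 514 in Dax1KO libraries (log2 fold change 1.65 ± 0.20, adjusted p = 0.00332). Hoxd13 had 107 and 90.7 against 218 and 247 (log2 fold change 1.23 ± 0.20, adjusted p = 0.00845). Of 22 T-box, Gata and Pax factors 7 were higher and 2 lower, with 4 higher without Dax1KO replicate 1 and 2 without Dax1KO replicate 2, and at most 1 lower without any 1 library. Gata1, a factor of blood cells, had 72.1 and 80 against 195 and 221 (log2 fold change 1.45, adjusted p = 0.0112). Of 26 Polycomb genes 2 were higher and 2 lower, with 1 higher without control replicate 2. The catalytic subunit Rnf2 fell (6604 and 4427 against 2395 and 2393, log2 fold change -1.20, adjusted p = 0.00814), and 0 of the list were called without Dax1KO replicate 2. The calls of Hoxd13, Gata1 and Rnf2 were lost without Dax1KO replicate 2.

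Changes were also ranked among protein-coding genes outside chromosome 6 called at 2 fold, with 100 or more normalized counts in each library of the higher group. Groups had to lie apart, and symbols of the Gm or Rik type were left out. The largest increases were those of Prickle3, Zan, Meltf, Rhobtb1 and Efnb3. Efnb3, an ephrin that signals between neighbouring cells, had 122 and 97.1 in control and 1026 and 1017 in Dax1KO libraries (log2 fold change 3.22 ± 0.24, adjusted p = 0.00109). Prickle3, a protein of planar cell polarity whose exons overlap Plp2, had 46.6 and 72.5 against 792 and 972 (log2 fold change 3.89 ± 0.81, adjusted p = 0.0196), and Zan had 26.5 and 39.5 against 548 and 427 (log2 fold change 3.88 ± 0.40), with exons that overlap Ephb4. Plxdc1, a transmembrane receptor, had 160.1 and 171 against 1206 and 1090 (log2 fold change 2.79 ± 0.17, adjusted p = 0.00059). Among the largest decreases were those of Lpar4, Vrtn, Pkhd1 and Slc15a3. Lpar4, a receptor of lysophosphatidic acid, had 456 and 390.4 against 45 and 18.5 (log2 fold change -3.73 ± 0.42, adjusted p = 0.0027). Vrtn had 305 and 291 against 15.3 and 38 (log2 fold change -3.48 ± 0.49, adjusted p = 0.0054). Klhl13, an adaptor of a ubiquitin ligase on the X chromosome, was lower from a high count (17828 and 15494 against 3141 and 3932, log2 fold change -2.24 ± 0.14, adjusted p = 0.000852), and its exons overlap Gm14523. Spp1 (osteopontin), a secreted adhesion protein, fell from 14145 and 16308 to 5646 and 5593 (log2 fold change -1.44 ± 0.11, adjusted p = 0.00109). The call of Prickle3 was lost without Dax1KO replicate 1, Dax1KO replicate 2, control replicate 1, control replicate 2 or a filter on low counts, and that of Slc15a3 without control replicate 2, a filter on low counts or the 2i/LIF libraries.

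The remaining lists had few called members or changes in both directions. Of 18 genes of oxidative stress 2 were lower, among them Sod2, the mitochondrial superoxide dismutase (8240 and 8533 against 4760 and 4744, log2 fold change -0.82 ± 0.09, adjusted p = 0.00275) and 0 were higher. The lower members were 5 with DESeq2 and 1 without control replicate 1, control replicate 2 or Dax1KO replicate 1. Of 39 axon guidance genes 9 were higher and 3 lower, with 2 to 5 higher and 1 or 2 lower without any 1 library, the fewest without Dax1KO replicate 2. Its members Sema7a and Sema3e, both semaphorins, moved apart: Sema7a had 304 and 243 against 805 and 716 (log2 fold change 1.47 ± 0.18, adjusted p = 0.00324) and Sema3e had 359 and 399 against 62.2 and 85.8 (log2 fold change -2.36 ± 0.30, adjusted p = 0.00408). Of 80 voltage-gated channel genes 9 were higher and 5 lower, with 4 higher and 3 lower with the GC trend removed, 1 to 4 higher and 0 to 3 lower without any 1 library, and the fewest without Dax1KO replicate 2. Of 76 nuclear genes of oxidative phosphorylation 1 was higher and 3 lower. Its lower members were 8 without control replicate 1, 1 without control replicate 2 and 0 without Dax1KO replicate 1 or Dax1KO replicate 2, and the higher ones 4 without control replicate 2. None of 20 genes of the state resembling the cleavage-stage embryo, 15 of DNA methylation and 24 clustered protocadherins was called by edgeR. At an unadjusted P under 0.05, 3 genes of the first list were lower, 0 of the second changed and 2 of the third were higher and 1 lower, and DESeq2 called 0, 0 and 3. Across all settings, at most 1 gene of the first list was higher. Without Dax1KO replicate 1, 1 gene of DNA methylation was higher, and of the protocadherins 3 were higher and 1 lower.

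The same fit gave the difference between the response in LIF/serum and that in 2i/LIF. Outside chromosome 6 it passed an adjusted P of 0.05 for 557 genes (2.83% of those tested), and for 428 of the 2726 genes called in LIF/serum (15.7%). The 428 were 270 without control replicate 1, 199 without control replicate 2, 112 without Dax1KO replicate 1, 74 without Dax1KO replicate 2, 93 without a filter on low counts and 1026 with DESeq2. Mycn fell by 1.48 on the log2 scale in LIF/serum and had -0.17 in 2i/LIF (adjusted p of the difference 0.00876). Gata4 had 1.44 and -0.16 (adjusted p of the difference 0.0161), and Sparc 1.12 and -0.20 (adjusted p of the difference 0.0124). Id1 was lower in LIF/serum (-0.83) and had 1.41 in 2i/LIF (adjusted p of the difference 0.00942), and Gli1 had -1.54 and 1.18 (adjusted p of the difference 0.0182). For Nr5a2 (-1.30 and -0.81), Ccnd1 (-1.42 and -2.12) and Cldn7, a junction protein (1.71 and 1.54), the difference did not pass (adjusted p = 0.227, 0.177 and 0.778).

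**Figure D4:**
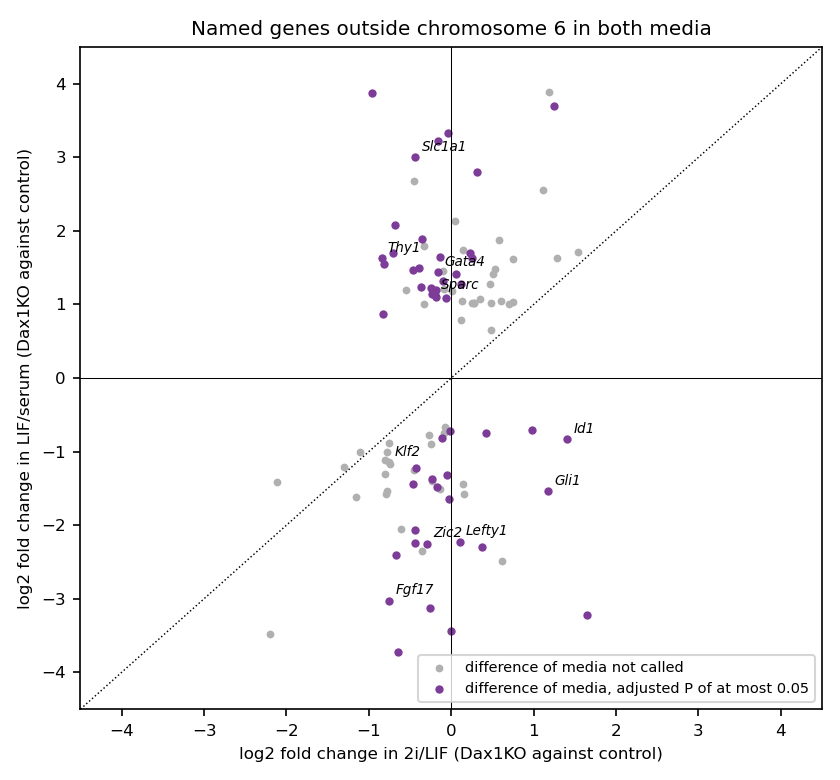
Log2 fold changes of Dax1KO over control in 2i/LIF (horizontal axis) and LIF/serum (vertical axis) of the called genes outside chromosome 6 that the text names, without Nr0b1, coloured where the fold changes of the media differed at an adjusted P of 0.05. Lefty1 and Zic2 lie low and Gata4 and Sparc high on the vertical axis, all with horizontal values between -0.30 and 0.11, and on the dotted line both media are equal.

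Genes of chromosome 6 were shifted as a whole. Of 1054 tested, 298 (28.3%) were higher and 17 (1.61%) lower, and 809 (76.8%) had fold changes above 0, against 49.0% elsewhere. Their median log2 fold change reached 0.52, beside 0.44 for the same comparison in 2i/LIF. In windows of 10 Mb with at least 20 tested genes with a mean of 100 or more normalized counts in the higher group, the 12 of chromosome 6 had medians from 0.37 to 0.71, and the 207 others from -0.63 to 0.65. Fold changes of single genes of the chromosome stand beside this shift of 0.52. The 315 called genes were 220 without control replicate 1, 175 without control replicate 2, 160 without Dax1KO replicate 1 and 103 without Dax1KO replicate 2.

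**Figure D5:**
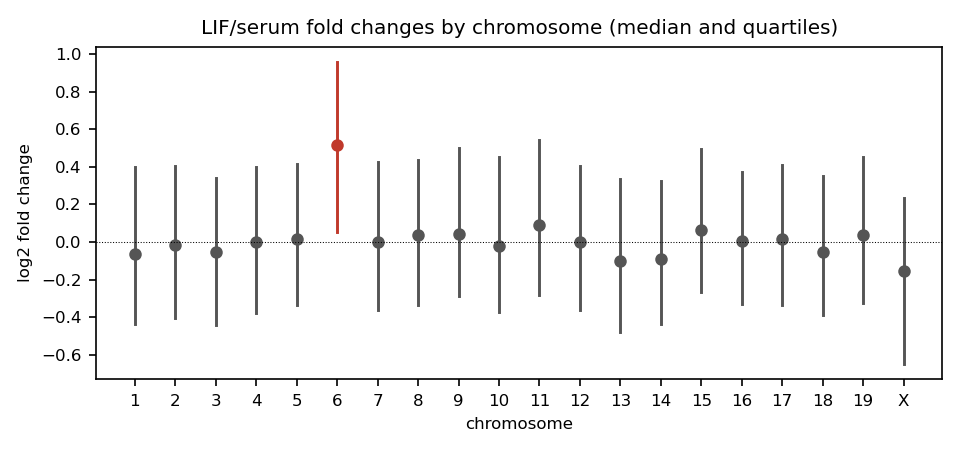
Median (point) and quartiles (line) of the log2 fold changes of Dax1KO over control in LIF/serum for the tested genes of each chromosome but Y, with chromosome 6 coloured. Chromosome 6 has a median of 0.52, and the other chromosomes shown have medians from -0.15 to 0.09.

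Several members of the lists above lie on chromosome 6. Of the 2 core pluripotency factors there, Nanog had 27164 and 25999 in control and 32666 and 31737 in Dax1KO libraries (log2 fold change 0.28, adjusted p = 0.111, and -0.20 when chromosome 6 was scaled alone), and Gdf3, a ligand of the Nodal type, was lower (5777 and 5975 against 3955 and 4069, log2 fold change -0.55, adjusted p = 0.0183). Asns, the asparagine synthetase of the ATF4 response, had 10492 and 11425 against 25771 and 28918 (log2 fold change 1.32 ± 0.13, adjusted p = 0.00175), above the shift of the chromosome. Hk2, which starts glycolysis, had 8755 and 10940 against 15537 and 18542 (log2 fold change 0.79 ± 0.15, adjusted p = 0.0136), a difference that was 0.31 and did not pass with chromosome 6 scaled alone (adjusted p = 0.151). With that scaling Asns had 0.84, Gdf3 -1.03 and Clstn3 -1.52, all past the test. The largest increases of the chromosome were those of Mgll, Vopp1, Emp1, Zfp9 and Gprc5a. Mgll, a lipase of monoglycerides, had 21.2 and 25.6 against 289 and 283 (log2 fold change 3.60 ± 0.37, adjusted p = 0.00207), and Gprc5a had 249 and 214 against 1014 and 1649 (log2 fold change 2.52 ± 0.30, adjusted p = 0.00312). Emp1 had 357 and 351 against 811 and 3612, with Dax1KO libraries far apart from each other (log2 fold change 2.64 ± 0.62, adjusted p = 0.0282). Against the shift, Aass of lysine breakdown fell from 1762 and 2125 to 334 and 416 (log2 fold change -2.37 ± 0.28, adjusted p = 0.00315) and Clstn3 from 2096 and 1852 to 902 and 1016 (log2 fold change -1.04 ± 0.14, adjusted p = 0.00513). The calls of Hk2 and Zfp9 were lost without Dax1KO replicate 2, and that of Gdf3 without Dax1KO replicate 1, Dax1KO replicate 2 or control replicate 2 and with a test against 1.2 fold. The call of Emp1 was lost without Dax1KO replicate 2, control replicate 1, control replicate 2, a filter on low counts or the 2i/LIF libraries.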

How the data were processed

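The authors deposited raw counts per gene and library, whole numbers without normalization, made from mRNA libraries sequenced on an Illumina instrument. The submitters' processing notes name HISAT2 2.0.4, DESeq2 and the build mm10, and the counting tool, annotation and strand setting were not given in the sources used here. Versioned Ensembl identifiers were matched to GENCODE M21 of GRCm38 (52403 of 52550 found) for symbols, positions and exon overlaps. Genes were aligned to all transcripts with blastn 2.17.0, and matches of at least 95% identity over 50% of the longest transcript mark uncertain counts. Exons of 39 of the 130 named genes overlapped another annotated gene, whose reads cannot be told apart from theirs without the strand setting.

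Samples were grouped by their labels, and total counts lay between 35911384 and 37106730 per LIF/serum library. Counting error limits low genes most, and the spread between libraries, not depth, limits abundant ones (biological coefficient of variation 20.9%). Counts were fitted with edgeR 4.0.16 in R 4.3.3 (filterByExpr, TMM, quasi-likelihood test, a mean for each of the 4 groups over all 8 libraries, Benjamini-Hochberg adjustment over 20749 genes). Contrasts were Dax1KO minus control in LIF/serum and its difference from 2i/LIF. The steps were tested on simulated data. Alternatives were DESeq2 1.42.0, RLE factors, TMM without chromosome 6, other count filters, only the 4 LIF/serum libraries, the replicate block, an unadjusted P, a test against 1.2 fold, each library left out, chromosome 6 scaled alone and, added after the data were seen, removal of each library's trend over 20 GC bins.

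The members and the 65 gene lists were chosen with earlier results of these data known. Named genes were anchors of the lists and Nr0b1, up to 3 members per list with the largest called changes with at least 100 normalized counts in the higher group and groups apart, the 10 largest and the 10 most abundant 2-fold changes each way, and the 5 largest each way on chromosome 6. A gene of the rule could be left unnamed, and some genes are not reported here. Cdon, Gdf3, Hsd17b7, Nanog and Tfap2c were named after their values were seen, as were the families and the 4 motifs. Promoter sequences are those of RefSeq (GRCm38.p6).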

Additional observations from a re-analysis of the deposited data

Results flagged for a closer look

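For 54 of the genes named, the fold change of Dax1KO over control differed between the media by the test of the difference itself (edgeR, adjusted p of the difference at most 0.05). The values below are the log2 fold change in LIF/serum minus that in 2i/LIF, positive where Dax1KO cells had the higher fold change in LIF/serum. The share of all genes outside chromosome 6 with such a difference was 2.83%. The genes were named for their change in LIF/serum, so the share of differing genes among them is not a result.

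Among genes of primitive endoderm and trophectoderm, the difference was 1.60 for Gata4, 1.33 for Sparc, 1.89 for Col4a2, 2.41 for Apom, 2.77 for Hand1 and 2.37 for Tfap2a. Fold changes of these genes were above 0 in LIF/serum and below 0 in 2i/LIF. The change in 2i/LIF did not pass for Gata4, Col4a2, Apom or Hand1 (edgeR, adjusted p = 0.683, 0.498, 0.163 and 0.314). For other developmental genes it was 1.78 for Hoxc13, 1.60 for Hoxd13, 1.15 for Dazl, 1.15 for Pecam1, 2.47 for Thy1 and -2.68 for Pax6.

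Signalling genes differed in both directions. The difference was -1.96 for Zic2, -1.62 for Zic5, -2.27 for Fgf17 and -2.32 for Lefty1. It was -2.72 for Gli1, -1.26 for Ptch1, -2.87 for Hhip, -2.25 for Id1, 2.24 for Bmp7, 1.38 for Nkd1, -1.15 for Socs2 and -1.68 for Junb. Gli1, Id1 and Junb had log2 fold changes of 1.18, 1.41 and 0.97 in 2i/LIF. By edgeR there, Id1 and Junb passed (adjusted p = 0.0133 and 0.0229) and Gli1 did not (adjusted p = 0.0616). The media differ in serum, base medium and inhibitors, and the cause was not tested.

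Of growth and metabolic genes, Mycn differed by -1.30, Ncl by -0.70, Rpl10l by -1.63, Hnrnph1 by -0.79, Sod2 by -0.71 and Cdkn1a by 1.37. Acss2 differed by 1.48, Pycr1 by 1.47, Asns by 1.04, Glb1 by 1.70, Lgmn by 1.42, Gabarapl2 by 1.38, Ucp2 by 1.29 and Timp2 by 1.36.

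Among further genes outside chromosome 6, the difference was 4.84 for Zan, 3.43 for Slc1a1, 3.38 for Efnb3, 3.37 for Rhobtb1, 2.48 for Plxdc1, 2.44 for Meltf and 1.94 for Sema7a. It was -4.87 for Slc15a3, -3.43 for Pkhd1, -3.09 for Lpar4, -1.79 for Klhl13, -1.74 for Ifitm3, -0.98 for Spp1 and -1.16 for Meg3. On chromosome 6 it was 4.15 for Vopp1 and -1.13 for Clstn3.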

How the results depend on the processing

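The total of 3041 DEGs at 1.2 fold was 4006 with DESeq2, 3007 with RLE factors, 3087 with TMM factors without chromosome 6 and 3195 with at least 10 counts per library. It was 1842 without a filter on low counts, 1743 with only the 4 LIF/serum libraries, 6335 at an unadjusted P under 0.05 and 1693 with a test against 1.2 fold. The 1420 DEGs at 2 fold were 2279 at an unadjusted P. Outside chromosome 6, the 2726 DEGs were 1614, 1551, 5833 and 1497 under the same settings as the total, and the 315 of chromosome 6 were 192 with only the 4 libraries, 502 at an unadjusted P and 196 with the test against 1.2 fold. The 428 that differed from 2i/LIF were 1026 with DESeq2, 93 without a filter, 2627 at an unadjusted P and 238 with the test against 1.2 fold, and the setting with only 4 libraries cannot give this difference. The chromosome 6 median of 0.52 was 0.42 without a filter. With each LIF/serum library left out in turn, the total was 728 to 2032, at 2 fold 577 to 1067, outside chromosome 6 625 to 1812, on chromosome 6 103 to 220 and for the difference from 2i/LIF 74 to 270, and the chromosome 6 median was 0.48 to 0.53. When a library was left out, the lone sample of its group was assumed to vary like the other groups. With the GC trend removed, an alternative chosen after the data were seen, the total was 2844 and the DEGs outside chromosome 6 were 1312 higher and 1225 lower. Of the 130 genes named, 15 lost the call without control replicate 1, 16 without control replicate 2, 15 without Dax1KO replicate 1, 36 without Dax1KO replicate 2 and 1 with the GC trend removed. Without a filter on low counts 14 lost it, without the 2i/LIF libraries 8 and with the test against 1.2 fold 6, and in all these settings none reversed its direction. With the test against 1.2 fold, 10 cholesterol synthesis genes were higher (16 otherwise) and 9 ribosome biogenesis genes lower (18 otherwise). Scaled on chromosome 6 alone, Nanog reversed to -0.20. The cause of these changes was not tested.

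A replicate block brought the total to 3218, with 2900 outside chromosome 6, 318 on it, 1392 at 2 fold and 400 for the difference from 2i/LIF, and 0 named genes lost the call. With the block, 3 core pluripotency factors and 3 neural ectoderm genes were lower (1 of each without it), 6 cytosolic ribosomal proteins were lower (3 without it) and 9 genes of glycolysis and hypoxia were higher (4 without it). Same-numbered control and Dax1KO libraries deviated together with a correlation of 0.108 across genes. All 25 genes of glycolysis and hypoxia were higher in the second library of both lines, against 5873 of all 19695 genes outside chromosome 6. With 2 pairs and no source for a pairing, what same-numbered libraries share beyond a number was not tested. The depth limits the precision of low genes most, and 5872 values of exactly 3 against 3430 of 2 mean that low counts need not be independent fragments.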

Other observations

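Further genes with many counts changed by 2 fold or more in LIF/serum. Gabarapl2, which attaches to autophagosome membranes, had 5693 and 6919 in control and 14609 and 14266 in Dax1KO libraries (log2 fold change 1.19 ± 0.12, adjusted p = 0.00204). Ucp2, a carrier of the inner mitochondrial membrane, had 2863 and 2857 against 5637 and 6654 (log2 fold change 1.10 ± 0.14, adjusted p = 0.00438). Both were higher in each Dax1KO library than in each control library. Of the lower genes, Cacybp had 20906 and 23179 against 8753 and 9704 (log2 fold change -1.26 ± 0.14, adjusted p = 0.0027), Enah, which promotes the growth of actin filaments, had 19320 and 23075 against 11679 and 9380 (log2 fold change -1.01 ± 0.15, adjusted p = 0.00587), and Glul, the glutamine synthetase, had 14440 and 13197 against 6974 and 6729 (log2 fold change -1.01 ± 0.15, adjusted p = 0.00617). The call of Glul was lost without Dax1KO replicate 2.

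Of the families picked after their values were seen, 5 of 8 mannosidases, which trim the sugars of secreted and lysosomal proteins, were higher and 0 lower (median log2 fold change 0.58), a count of 2 with the GC trend removed or without control replicate 1, control replicate 2 or Dax1KO replicate 2, and 3 without Dax1KO replicate 1. Of 12 axonemal dyneins 5 were higher and 0 lower, of 23 myosins 8 were higher and 2 lower, and of 16 tRNA methyltransferases 0 were higher and 5 lower. Without Dax1KO replicate 2 the higher dyneins were 2, the higher and lower myosins 1 each and the lower methyltransferases 1. The higher dyneins were 3 and the higher myosins 3 without control replicate 2 or Dax1KO replicate 1, in both of which the lower myosins were 1, and the lower methyltransferases were 2 without control replicate 1.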
